A study of Rattus norvegicus with 60 samples.

Results

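The 9 genes described here encode the enzymes and helpers of active DNA demethylation, and were taken by symbol from a table of 22865 genes measured in rat hippocampal CA1: Tet1, Tet2, Tet3, Tdg, Apex1, Gadd45a, Gadd45b, Gadd45g and Ogt. All 9 symbols were found, each on 1 row. TET dioxygenases oxidise 5-methylcytosine stepwise to hydroxymethyl, formyl and carboxyl forms. The glycosylase TDG cuts out the formyl and carboxyl bases, the endonuclease APEX1 nicks the strand at the abasic site left behind, and base excision repair restores an unmodified cytosine. GADD45 proteins are small stress-inducible adaptors that have been linked to this repair route, and in hippocampal neurons Gadd45b is known as an activity-induced gene. OGT, an enzyme that adds N-acetylglucosamine to nuclear and cytosolic proteins, binds TET2 and TET3.

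The animals were Sprague-Dawley rats aged 90 to 120 d, and the study followed contextual threat recognition training. Directional polyA+ RNA libraries came from 9 naive samples, 6 place and 8 threat samples at 1 h, and 5 place and 6 threat samples at 24 h. The naive RNA libraries carry no time and served for both. Methylated DNA was captured with a methyl-binding domain protein (MBD), which holds densely methylated DNA, in 3 naive, 4 place and 3 threat libraries at each time, beside 3 libraries of input DNA that was not captured. Genotype is not given, and what the place and threat animals experienced is not spelled out in the labels. Nor do they say that replicates were separate animals, so each p-value reflects only how far these libraries vary, and part of that may be technical.

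Library depth and makeup were as follows. Relative RNA depth ran from 0.838 to 1.21 of the median library, and captured and input libraries held 31432723 to 59548284 reads in bins. CA1 pyramidal markers summed to 113 to 308 FPKM per library (fragments scaled to gene length and library size). CA2 and CA3 markers summed to 110 to 187 FPKM, and dentate granule markers to 25.5 to 119. Choroid plexus markers reached a sum of 6414 FPKM in 1 of the threat 1 h libraries. Threat 1 h replicates 4 and 7 were rich in these transcripts. RNA results of the 9 genes that rest on threat 1 h were also computed without them, and those of partner and marker genes were not. The naive columns stand in the deposited table as 5 to 9 ahead of 1 to 4. Libraries 5 to 9 differed from 1 to 4 in 19.0% of all genes tested, and no label calls these sets a batch. Calls of the 9 genes against naive are therefore also given for each set. Partner and marker genes were compared with all 9 naive libraries together only.

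RefSeq lists a promoter for all 9 genes in build GRCr8, with 1 start for 6 of them, 2 for Ogt, 3 for Tet1 and 4 for Tet3. The 250 bases before the start of 5 genes are shown because capture at their annotated starts, described further on, ranged from nearly none to above input. Every CpG, the dinucleotide that the captured methylation sits on, is in capitals.
Apex1: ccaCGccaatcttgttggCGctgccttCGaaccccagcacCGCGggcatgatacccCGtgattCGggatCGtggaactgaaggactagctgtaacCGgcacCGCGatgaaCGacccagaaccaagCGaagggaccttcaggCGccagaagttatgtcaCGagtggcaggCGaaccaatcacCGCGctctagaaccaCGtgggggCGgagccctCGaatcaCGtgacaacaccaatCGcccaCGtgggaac
Ogt: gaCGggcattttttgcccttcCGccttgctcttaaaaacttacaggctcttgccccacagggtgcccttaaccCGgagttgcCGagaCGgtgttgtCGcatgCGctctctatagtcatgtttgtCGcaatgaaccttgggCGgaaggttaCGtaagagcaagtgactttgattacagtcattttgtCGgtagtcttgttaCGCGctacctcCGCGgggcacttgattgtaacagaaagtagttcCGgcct
Tet2: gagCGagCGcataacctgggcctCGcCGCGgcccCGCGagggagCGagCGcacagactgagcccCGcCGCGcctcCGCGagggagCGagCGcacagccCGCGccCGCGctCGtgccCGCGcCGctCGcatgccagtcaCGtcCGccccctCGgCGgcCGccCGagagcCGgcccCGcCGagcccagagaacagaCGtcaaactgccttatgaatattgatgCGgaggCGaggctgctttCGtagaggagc
Gadd45b: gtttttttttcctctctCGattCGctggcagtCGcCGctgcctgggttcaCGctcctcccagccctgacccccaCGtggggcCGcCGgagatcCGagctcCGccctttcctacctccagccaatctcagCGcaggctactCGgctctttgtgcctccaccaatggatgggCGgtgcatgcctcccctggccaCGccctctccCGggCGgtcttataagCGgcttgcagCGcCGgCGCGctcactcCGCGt
Gadd45g: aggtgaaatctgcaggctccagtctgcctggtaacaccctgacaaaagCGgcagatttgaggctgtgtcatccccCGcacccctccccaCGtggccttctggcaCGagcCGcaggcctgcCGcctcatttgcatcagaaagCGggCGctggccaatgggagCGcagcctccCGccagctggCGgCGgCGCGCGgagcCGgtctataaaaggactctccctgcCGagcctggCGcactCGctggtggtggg
The Apex1 window (chr15:26617976-26618225, plus strand) holds 24 CpGs, and that of Ogt (chrX:70811085-70811334, plus strand, the first of its 2 starts) holds 16. The Tet2 window (chr2:224746187-224746436, minus strand) holds 38, more than 98.3% of the 33469 rat promoters listed, whose median is 5. Gadd45b (chr7:9430719-9430968, minus strand) has 23 and Gadd45g (chr17:13530352-13530601, minus strand) has 19. The E-box CACGTG, searched on both strands (it reads the same on each), occurs 3 times in the Apex1 window, once each in Gadd45b and Gadd45g, and not in the windows of the other 6 genes. It is found in 5.59% of all promoters, and 17 of them hold it 3 or more times. The cyclic AMP response element TGACGTCA, also its own reverse complement, occurs once in the Tdg window (chr7:22985101-22985350, minus strand) and in 1.59% of all promoters. These letter matches describe the windows and do not show binding.

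Levels of the 9 mRNAs spanned from trace amounts of Tet1 to abundant Ogt and Apex1. Mean FPKM over the 34 libraries was 26.1 for Ogt, 24.9 for Apex1, 8.92 for Tdg, 7.59 for Gadd45b, 4.95 for Gadd45g, 3.07 for Gadd45a, 2.55 for Tet3, 2.24 for Tet2 and 0.467 for Tet1. FPKM is per length, so this order compares genes. Ogt and Apex1 overlapped in range (22.2 to 32.1 and 20.8 to 31.0 FPKM), as did Tdg (7.38 to 11.3) with Gadd45b (3.99 to 10.3), and Tet2 (1.64 to 2.93) with Tet3 (2.01 to 3.25). Tet1 stayed between 0.317 and 0.605 FPKM and reached 1 FPKM in 0 of 34 libraries. It therefore fell below the filter (1 FPKM in at least 5 libraries), which the other 8 passed in all 34. Within genes, Gadd45g varied most (highest library 2.76 times the lowest), then Gadd45b at 2.58, while Ogt varied by 1.44 and Apex1 by 1.49.

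**Figure D1:**
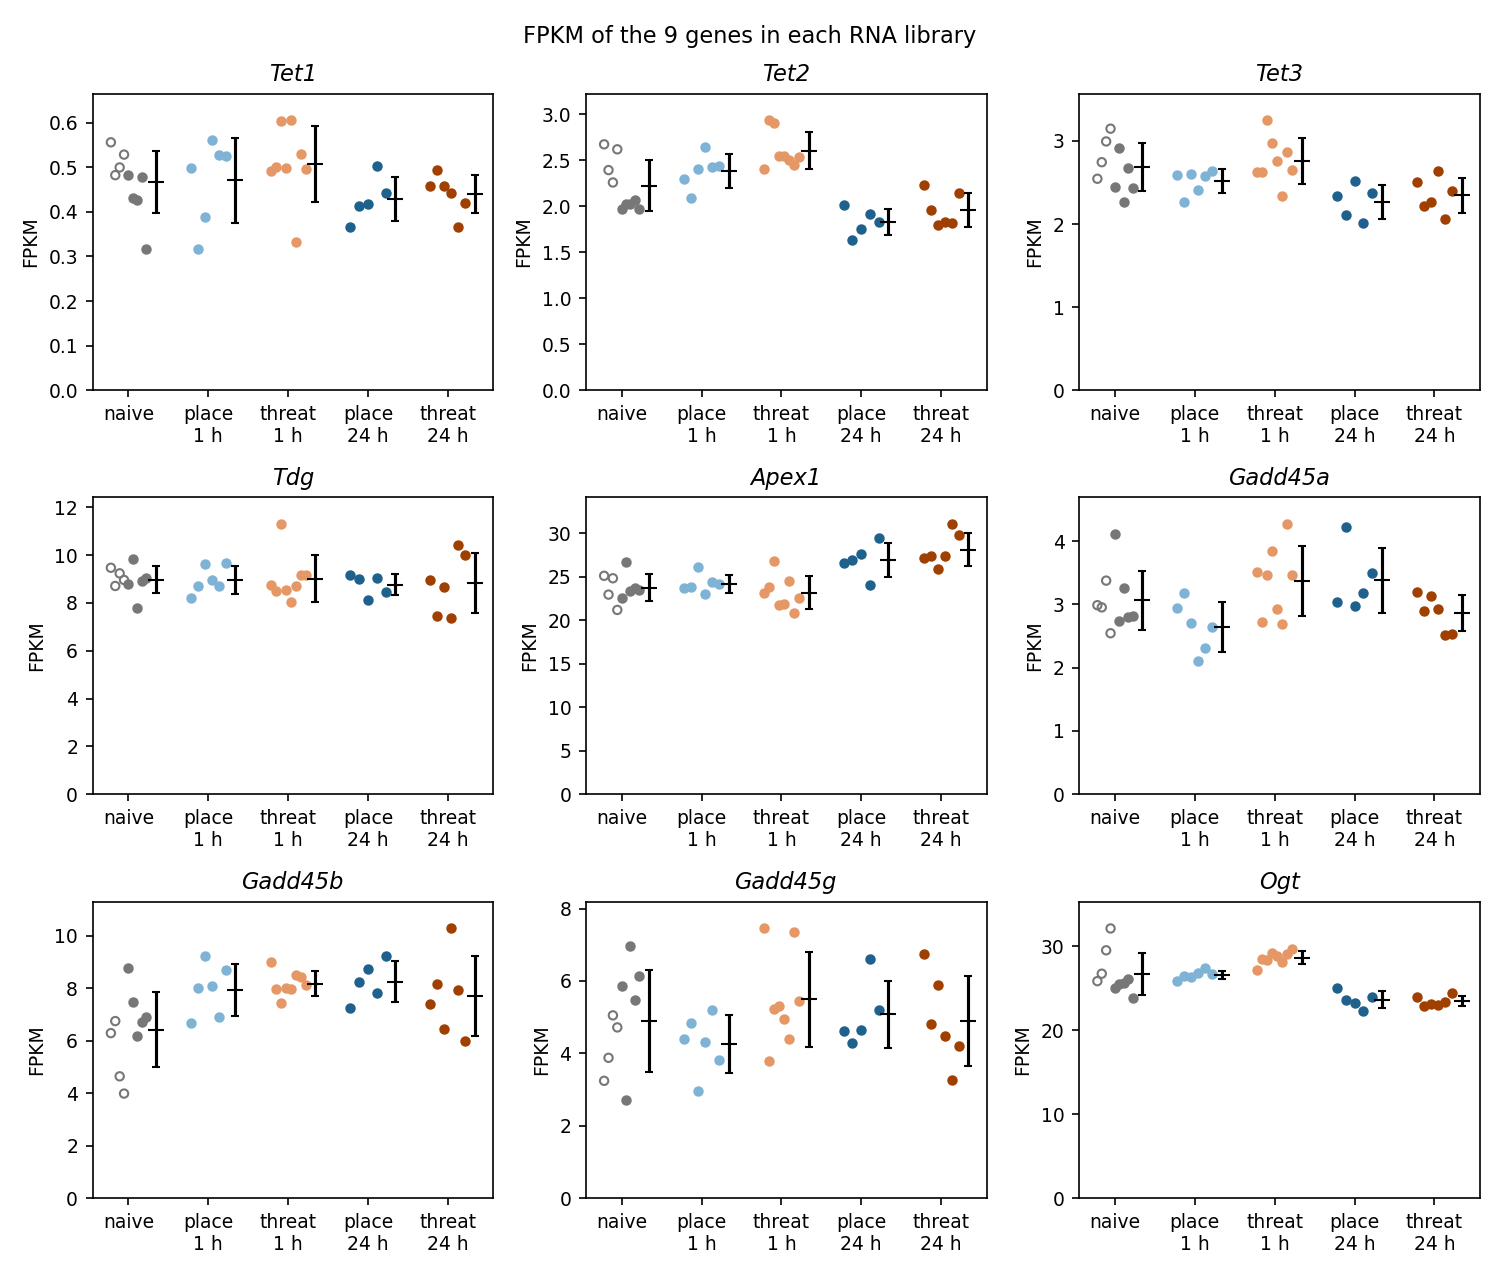
FPKM of each of the 9 genes (y axis, from 0) in every RNA library, by group (x axis); points are libraries, open grey points are naive libraries 1 to 4 and filled grey points 5 to 9, and black bars are the mean and SD. The 24 h groups of Tet2 (highest library 2.22) lie below all threat 1 h libraries (lowest 2.41), and the naive libraries split between these levels.

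The plainest pattern was between times within each kind of training. Tet2 and Ogt were lower at 24 h than at 1 h after both threat and place training, Tet3 was lower and Apex1 higher at 24 h after threat training, and Tdg and the 3 Gadd45 genes did not pass the test in either. After threat training, limma called 4 of the 8 members tested (1 higher, 3 lower), where 29.3% of all genes were called (12.5% higher, 16.8% lower). After place training it called 2 of 8, both lower, against 13.3% of all genes (6.61% higher, 6.64% lower). Threat and place libraries share no samples, though any factor tied to the 1 h or the 24 h libraries may be common to both. Naive libraries, which had no training, also differed between their 2 sets. Libraries 5 to 9 minus 1 to 4 gave -0.21 for Tet2 and -0.17 for Ogt, both called by limma. The same difference was -0.12 for Tet3 and 0.03 for Apex1, neither called. What separates the naive sets was not tested. The labels name no batch or time of day, so time after training and any such factor cannot be told apart, and in bulk tissue fewer cells of a type and less RNA per cell cannot be told apart either.

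Tet2, the TET enzyme without a CXXC DNA-binding domain of its own, had threat 1 h values of 2.41, 2.54 and 2.93 FPKM (lowest, median, highest of 8) and threat 24 h values of 1.80, 1.90 and 2.22 (of 6). Every 24 h library lay below every 1 h library. On the log2(FPKM + 1) scale, which understates changes of low genes, the fitted difference was -0.28 (SE 0.05, limma adjusted p = 0.00022). Place 1 h libraries stood at 2.09, 2.42 and 2.64 FPKM (of 6), and the 5 place 24 h libraries at 2.01, 1.64, 1.75, 1.91 and 1.83. Again the groups did not overlap, with a difference of -0.26 (SE 0.06, limma adjusted p = 0.0050). How many of all genes had RNA groups apart in this way was not counted, here or for the genes below. Lack of overlap therefore only describes these libraries.

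Ogt showed the same separation at a far higher level. Its threat 1 h libraries ran 27.2, 28.7 and 29.7 FPKM (lowest, median, highest), and its threat 24 h libraries 22.9, 23.2 and 24.4. The difference was -0.28 (SE 0.04, limma adjusted p = 1.8e-05). In place libraries Ogt stood at 25.9, 26.6 and 27.4 FPKM at 1 h and at 25.1, 23.6, 23.3, 22.2 and 24.0 at 24 h, with no overlap. That difference was -0.16 (SE 0.05, limma adjusted p = 0.0204), and it lost the call without place 24 h replicate 4 (-0.14, adjusted p = 0.0542).

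Apex1 moved the opposite way. Its threat 1 h libraries ran 20.8, 22.9 and 26.8 FPKM and its threat 24 h libraries 25.9, 27.4 and 31.0, so that 5 of 6 lay above every 1 h library. The fitted rise was 0.27 (SE 0.05, limma adjusted p = 0.00022). After place training the 1 h libraries (23.1, 24.0 and 26.1) and the 24 h libraries (26.5, 27.0, 27.7, 24.1 and 29.5) overlapped, and the difference of 0.15 (SE 0.06) did not pass (limma adjusted p = 0.0831). It passed without place 1 h replicate 3 (0.17, adjusted p = 0.0486) or place 24 h replicate 4 (0.19, adjusted p = 0.0340).

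Tet3, the TET form with a CXXC domain in its long isoforms, had threat 1 h values of 2.33, 2.71 and 3.25 FPKM and threat 24 h values of 2.06, 2.33 and 2.63, with overlap. Its fall of 0.17 on the log2 scale (SE 0.05, limma adjusted p = 0.0211) was the weakest call of the 4. It was lost without the choroid-rich libraries (-0.15, adjusted p = 0.0733), without threat 24 h replicate 5 (-0.14, adjusted p = 0.0668), and with quantile normalization (-0.09, adjusted p = 0.211). In place libraries Tet3 had 2.26, 2.59 and 2.64 FPKM at 1 h and 2.33, 2.11, 2.51, 2.01 and 2.38 at 24 h (difference -0.11, SE 0.06, limma adjusted p = 0.261).

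Markers of blood vessels moved in 1 of these comparisons. Of 7 endothelial and mural markers, 5 were lower at 24 h than at 1 h after threat training and 0 after place training. Their summed level was 89.7 to 123 FPKM at threat 1 h and 77.0 to 94.7 at threat 24 h. None of the 7 was listed at 0 in all libraries. In place libraries it was 80.6 to 116 FPKM at 1 h and 88.2 to 115 at 24 h. The part of this change in the results for Tet2, Tet3, Apex1 and Ogt was not tested. Of 9 microglial markers 1 rose after threat and 2 after place training (summed 103 to 150 FPKM at 1 h and 126 to 174 at 24 h), and all 3 blood markers tested rose after place training (110 to 194 FPKM at 1 h, 160 to 451 at 24 h). Of 7 astrocyte markers 2 fell after threat and 1 after place training, and of 8 oligodendrocyte markers 1 fell after threat training. Of 8 interneuron markers 1 rose after threat training, and 1 rose and 1 fell after place training, and 1 of 6 CA1 pyramidal markers rose after threat training. These counts stand beside 12.5% of all genes higher and 16.8% lower after threat training, and 6.61% and 6.64% after place training, and their part in the results was not tested.

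**Figure D2:**
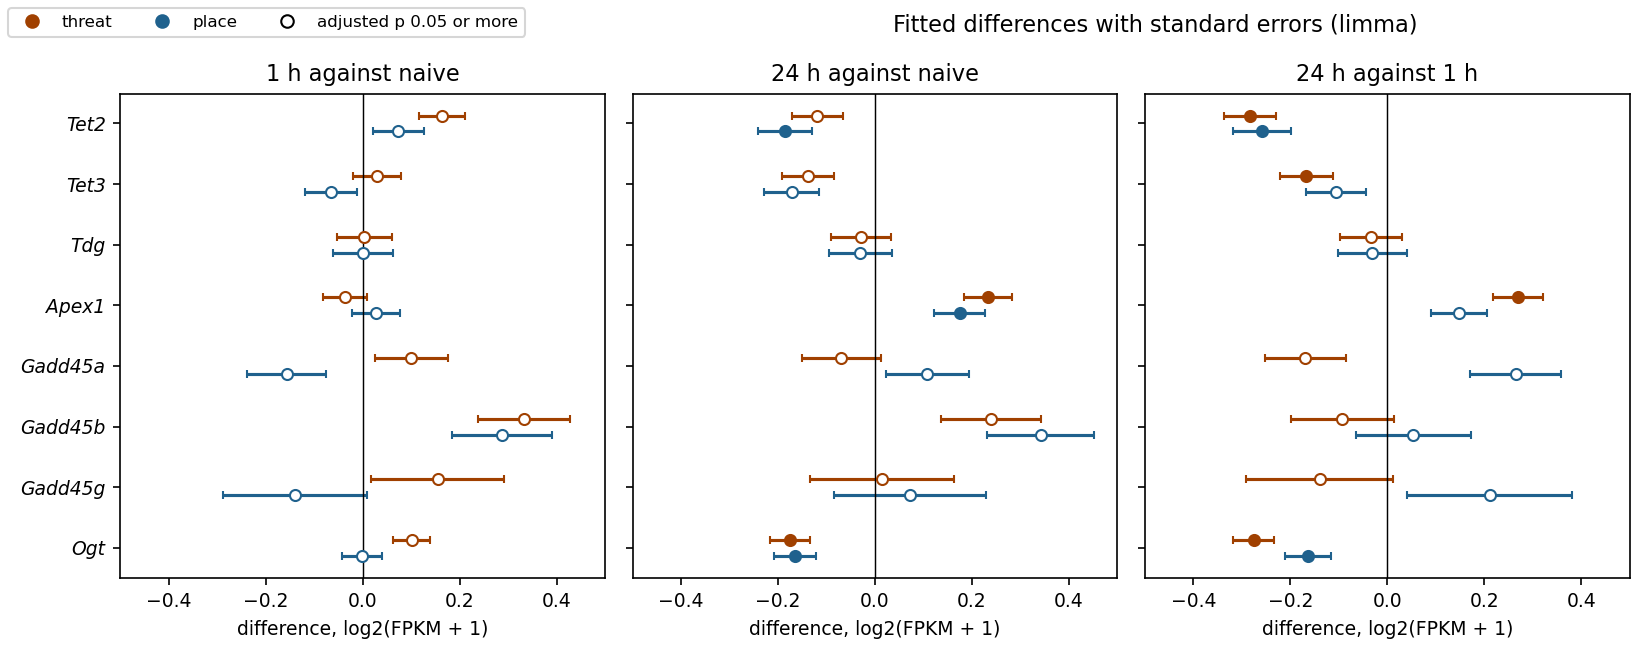
Fitted differences on the log2(FPKM + 1) scale (x axis) for the 8 genes tested (y axis), against naive at 1 h and 24 h and between times; points are limma estimates, bars standard errors, filled points adjusted p under 0.05. Tet2 and Ogt are filled on the left of 0 for both trainings between times, at -0.28 to -0.16, and all points at 1 h against naive are open.

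Against naive, 1 h after training, no member passed the test. Gadd45b had the widest difference of the 8 in both trainings. Limma called 0 of 8 members for threat (0.928% of all genes) and 0 of 8 for place (0.129%), with 3 and 1 members at an unadjusted p under 0.05. How many of all genes reached that unadjusted p was not counted. No count-based tool applies to FPKM. Gadd45b had naive values of 3.99, 6.69 and 8.78 FPKM, place 1 h values of 6.67, 8.05 and 9.24, and threat 1 h values of 7.43, 8.06 and 9.01. These ranges overlapped, with differences of 0.33 (SE 0.10, limma adjusted p = 0.0794) for threat and 0.29 (SE 0.10, adjusted p = 0.324) for place.

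The naive sets mattered for Gadd45b. Naive libraries 1 to 4 ran from 3.99 to 6.75 FPKM and 5 to 9 from 6.16 to 8.78, a difference of 0.37 (SE 0.12, limma adjusted p = 0.0235). Against 1 to 4 alone, threat 1 h was 0.54 higher (adjusted p = 0.0194, where 0.220% of all genes were called), and against 5 to 9 alone it was 0.17 higher (adjusted p = 0.184). For Tet2 and Ogt it was the other set that gave calls. Against 5 to 9 alone, where 19.8% of all genes were called, threat 1 h was higher by 0.26 for Tet2 (adjusted p = 0.0003) and by 0.18 for Ogt (adjusted p = 8.4e-05), and against 1 to 4 alone by 0.05 and 0.01, neither called. For place at 1 h, 0 members were called against 1 to 4 (0.0380% of all genes) and 1, Tet2, against 5 to 9 (12.7%), with differences of -0.04 and 0.17.

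Gadd45a and Gadd45g, the other 2 family members, differed from naive at 1 h by 0.10 and 0.15 for threat and by -0.16 and -0.14 for place, none past the test. Gadd45a had place 1 h values of 2.10, 2.67 and 3.17 FPKM and threat 1 h values of 2.69, 3.47 and 4.26, which overlapped. Their direct difference was 0.26 (SE 0.08, unadjusted p = 0.0042, limma adjusted p = 0.9996). At 24 h the order turned, with place values of 3.04, 4.22, 2.97, 3.17 and 3.49 and threat values of 2.51, 2.91 and 3.20. The interaction of training and time for Gadd45a was -0.43 (SE 0.13, unadjusted p = 0.0015, limma adjusted p = 0.9997). Gadd45g had place 1 h values of 2.96, 4.36 and 5.20 FPKM and threat 1 h values of 3.78, 5.27 and 7.45 (difference 0.29, SE 0.15, limma adjusted p = 0.9996).

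Threat and place did not differ beyond the test at either time for any member. Limma called 0 of 8 members and 0% of all genes for threat against place at 1 h, at 24 h, and for the interaction. At an unadjusted p under 0.05 there were 2 members at 1 h (Gadd45a and Ogt), 0 at 24 h and 1 for the interaction (Gadd45a). The share of all genes at that p was not counted, so these are not results about the members. For Tet2 the fall from 1 h to 24 h differed between trainings by -0.02 (SE 0.08), and for Ogt by -0.11 (SE 0.06). A missed threshold does not show equal responses.

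Against naive at 24 h, Apex1 was higher and Ogt lower after both trainings, and Tet2 was lower after place training. For threat, limma called 2 of 8 members (1 higher, 1 lower) against 10.1% of all genes (4.32% higher, 5.77% lower). For place it called 3 of 8 (1 higher, 2 lower) against 5.05% (1.49% higher, 3.56% lower). The same 9 naive libraries serve both comparisons. All 3 place calls were lost with only the groups compared, and without naive 3 or place 24 h replicate 2, 3 or 5, and the threat call of Ogt was lost with only the groups compared (adjusted p = 0.0777). Apex1 had naive values of 21.2, 23.4 and 26.7 FPKM, and 5 of 6 threat 24 h and 3 of 5 place 24 h libraries lay above all of them. The differences were 0.23 for threat (SE 0.05, limma adjusted p = 0.0032) and 0.17 for place (SE 0.05, adjusted p = 0.0478).

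Ogt had naive values of 23.8, 25.8 and 32.1 FPKM, and 4 of 6 threat 24 h and 3 of 5 place 24 h libraries lay below all of them. Its differences were -0.17 for threat (SE 0.04, limma adjusted p = 0.0068) and -0.16 for place (SE 0.04, adjusted p = 0.0246). Tet2 had naive values of 1.97, 2.07 and 2.67 FPKM, and 4 libraries of each 24 h group lay below all of them. The place difference was -0.19 (SE 0.06, adjusted p = 0.0456) and the threat difference -0.12 (SE 0.05, adjusted p = 0.141). Endothelial and mural markers were lower in 3 of 7 for threat and in 0 of 7 for place (86.3 to 131 FPKM in naive libraries). Of all genes, 5.77% and 3.56% were lower. The part of these markers in the results was not tested.

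These 24 h calls depended on which naive libraries were used. Against 1 to 4 alone, 5 members were called for threat and for place, where 29.6% and 23.7% of all genes were called. They were Tet2, Tet3 and Ogt, all lower, and Apex1 and Gadd45b, both higher. Against 5 to 9 alone 0 of 8 were called in both (0.456% and 0.0836% of all genes). Apex1 kept its size, at 0.25 and 0.22 for threat, while Ogt went from -0.27 to -0.10, Tet2 from -0.24 to -0.03 and Gadd45b from 0.45 to 0.08. Naive libraries 5 to 9 were lower than 1 to 4 for Tet2 (1.97 to 2.07 FPKM against 2.26 to 2.67, limma adjusted p = 0.0072) and for Ogt (23.8 to 26.1 against 25.8 to 32.1, adjusted p = 0.0057).

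**Figure D3:**
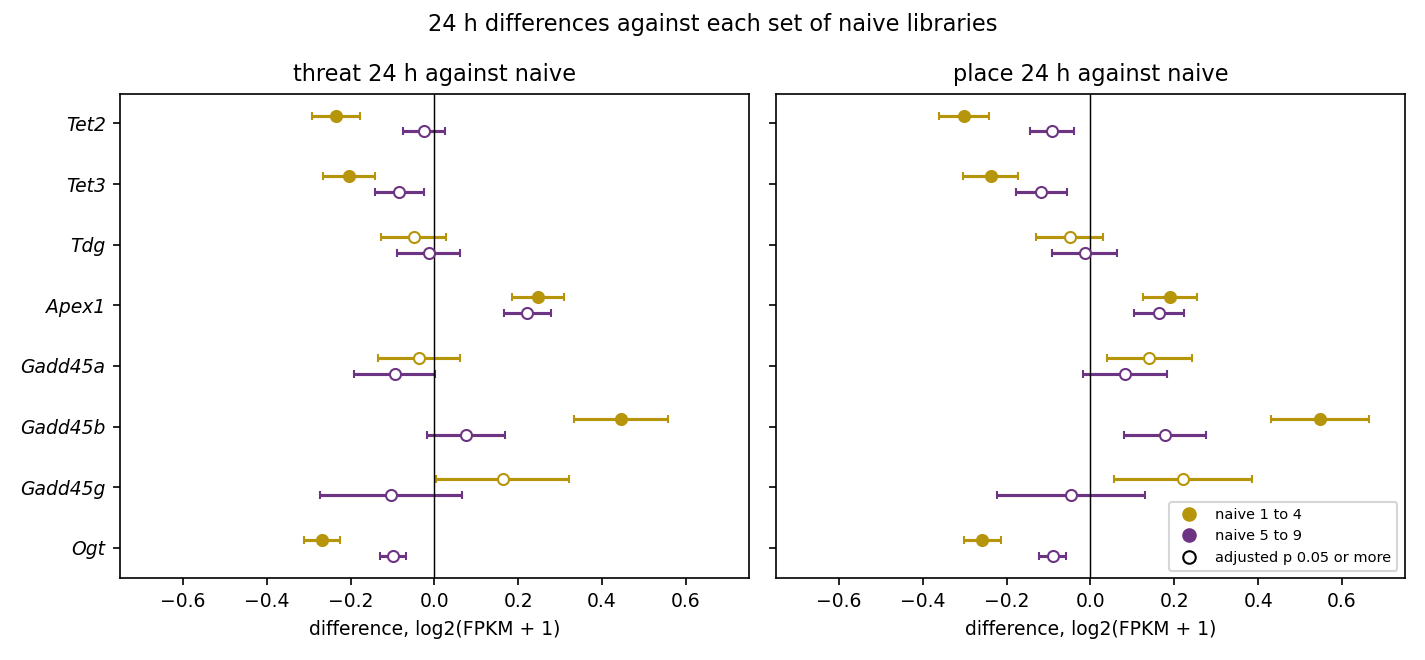
Differences of the 24 h groups from naive libraries 1 to 4 alone and from 5 to 9 alone on the log2(FPKM + 1) scale (x axis) for 8 genes (y axis), as limma estimates with standard errors, filled where the adjusted p was under 0.05. Apex1 sits at 0.16 to 0.25 whichever set is used, and Gadd45b moves from 0.45 to 0.08 in the threat panel.

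Tdg, the glycosylase, had the closest group means of the 9 genes (highest 1.03 times the lowest), although Ogt and Apex1 varied less from library to library. Its group means were 8.97 FPKM (SD 0.57, n = 9) in naive, 8.97 (SD 0.58, n = 6) in place 1 h, 9.02 (SD 0.99, n = 8) in threat 1 h, 8.76 (SD 0.44, n = 5) in place 24 h and 8.82 (SD 1.26, n = 6) in threat 24 h libraries. All 5 ranges overlapped. Its fitted differences reached -0.033 (SE 0.06) for threat between times and were smaller in the other 8 contrasts. Tet1, fitted without the filter, differed from naive by 0.04 (SE 0.03) at threat 1 h and by -0.03 (SE 0.04) at threat 24 h, and by -0.06 (SE 0.04, limma adjusted p = 0.265) between those times.

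Partner genes of the route were taken from lists chosen with earlier results of these data known. Their comparisons with naive used all 9 naive libraries together and were not repeated against each naive set. Over all genes, threat calls at 24 h went from 29.6% against naive 1 to 4 to 0.456% against 5 to 9. Of 20 base excision repair and deaminase partners tested (25 of 26 found), 0 rose and 4 fell from 1 h to 24 h after threat training (12.5% and 16.8% of all genes), and 0 rose and 3 fell after place training (6.61% and 6.64%). The threat count is near the share over all genes. Among those that fell after threat training were Xrcc1, the scaffold of single-strand break repair, and the glycosylases Mutyh and Ung. Xrcc1 ran from 18.6 to 23.8 FPKM at threat 1 h and from 12.8 to 15.4 at threat 24 h (difference -0.60, SE 0.09, limma adjusted p = 2.3e-05), with no overlap. In place libraries it ran from 18.6 to 25.2 and from 14.2 to 15.2 (-0.52, adjusted p = 0.0019). Mutyh changed by -0.56 and -0.44. The list's median difference was -0.04 for threat and -0.02 for place, beside -0.01 and 0.01 over all genes. Against naive at 24 h, 2 fell for threat (5.77% of all genes) and 2 for place (3.56%), Xrcc1 and Mutyh in each. At 1 h 0 changed, where 0.928% and 0.129% of all genes were called.

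Among 14 tested TET cofactors and partners (17 of 18 found), 2 rose and 1 fell after threat training between times, near or below the 12.5% and 16.8% of all genes. Idh3a, a subunit of the dehydrogenase that makes 2-oxoglutarate, the TET cosubstrate, rose by 0.19 (SE 0.06, limma adjusted p = 0.0230), and the TET2-binding CXXC protein Cxxc4 rose by 0.20 (adjusted p = 0.0475). Idh3g fell by 0.11 after threat (adjusted p = 0.0426) and by 0.17 after place training (adjusted p = 0.0138), the only call of the list there. The list's medians were -0.05 and 0.01, and 0 were called against naive at either time. Of all genes, 0.928% for threat and 0.129% for place were called at 1 h, and 10.1% and 5.05% at 24 h.

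Of 17 tested GADD45 partners and stress kinase genes (19 of 20 found), 1 rose at threat 1 h against naive, where 0.928% of all genes were called. This was Cdkn1a, the cell cycle inhibitor p21 that GADD45 proteins bind, at 1.49 to 2.20 FPKM in naive and 2.41 to 5.69 in threat 1 h libraries, with no overlap (0.77, SE 0.10, limma adjusted p = 5.1e-05). Place 1 h libraries stood between, at 1.96 to 3.11 FPKM (0.32, adjusted p = 0.293). From threat 1 h to 24 h, 4 fell, namely Cdkn1a (-0.77), the p38 kinase Mapk14 (-0.27), its activator Map2k3 (-0.27) and the transcription factor Foxo3 (-0.23), and 0 rose, beside 16.8% of all genes lower and 12.5% higher. After place training 0 changed, beside 6.61% of all genes higher and 6.64% lower. The list's median for threat between times was -0.05.

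Of 12 tested DNA methyltransferases and methyl-CpG readers (14 of 14 found), 0 rose in the comparisons with naive and between times. At 24 h against naive, 3 fell for threat (5.77% of all genes) and 2 for place (3.56%). Between times 2 fell for threat and 1 for place, near the 16.8% and 6.64% of all genes. The de novo methyltransferase Dnmt3a ran from 3.24 to 4.37 FPKM in naive, 2.93 to 3.33 in threat 24 h and 2.76 to 3.31 in place 24 h libraries (-0.21 and -0.23 against naive, limma adjusted p = 0.0036 and 0.0062). Baz2a, a methyl-binding-domain chromatin remodeller subunit, fell by 0.28 between threat times (adjusted p = 0.00042). In these 4 lists, 0 genes were called for threat against place or for the interaction, as 0% of all genes were.

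Across the 34 libraries Tet2, Tet3 and Ogt varied together and Apex1 opposite to them. Pearson's r of log values was 0.81 for Tet2 with Ogt, 0.74 for Tet3 with Ogt, 0.63 for Tet2 with Tet3, and -0.67 for Apex1 with Ogt. Gadd45a and Gadd45g had an r of 0.50. These are descriptions over libraries that share groups, naive sets and depth. The genes most like each member in the whole table were Brwd1 and Mll1 for Tet2 (r of 0.89 each), Baz2a (0.84) and Jmjd1c (0.82) for Tet3, Zfp142 and Atxn2l for Ogt (0.94 each), Capzb (0.91) and Itpa (0.89) for Apex1, and Dusp5 (0.73) and Tmem41b (0.70) for Gadd45b. For Gadd45a they were Mtus1 (0.73) and Wfikkn2 (0.71), for Gadd45g Gfra2 (0.81), for Tdg Slc30a3 (0.76) and Camkk1 (0.67), and for Tet1 Slc7a2 (0.74) and Zfp263 (0.73).

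Capture of methylated DNA differed between the 9 genes. Tet2, Tet3 and Tdg were captured above input over the gene as a whole, while Apex1, the 3 Gadd45 genes, Tet1 and Ogt were captured below it. Positions are in rn5: Tet1 chr20:29201150-29267359 (plus strand), Tet2 chr2:257255362-257279069 (minus), Tet3 chr4:179656564-179696869 (minus), Tdg chr7:27313358-27333042 (minus), Apex1 chr15:31682396-31684507 (plus), Gadd45a chr4:162568471-162570782 (minus), Gadd45b chr7:11813536-11815565 (minus), Gadd45g chr17:15469301-15471060 (minus) and Ogt chrX:72390253-72435239 (plus). Signal is RPKM, reads scaled to bin length and library size, in bins of 500 nt. Captured over input, the mean of the 10 captured libraries against that of 3 input libraries, was 2.12 for Tdg, 1.56 for Tet2 and 1.41 for Tet3 at 1 h, and 1.72, 1.33 and 1.18 at 24 h. The median over all genes was 1.03 and 1.11. The tables of both times are shown side by side and not tested against each other.

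Gadd45g had the least captured DNA of the 9. Its 5 bins held 0 to 2 reads per captured library at 1 h, 5 in all over 10 libraries, against 40 to 45 per input library, a ratio of 0.01 that lay at percentile 0.90 of all genes. At 24 h it held 0 to 9 reads, a ratio of 0.09. Gadd45b stood at 0.18 and 0.24 of input, Gadd45a at 0.21 and 0.33, and Apex1 at 0.21 and 0.39. Tet1 (0.41 and 0.72) and Ogt (0.44 and 0.58) are longer genes with little captured DNA in most bins. The Apex1, Gadd45a, Gadd45b and Gadd45g models are only 5 or 6 bins long, so their values rest on few reads.

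Around annotated starts (1000 nt to each side) the contrast was sharper. At 1 h the windows of Apex1, Gadd45b, Gadd45g and Ogt held 0 to 5 reads per captured library and those of input 12 to 56. Their ratios were 0.03, 0.03, 0.01 and 0.02, beside a median of 0.32 over all genes, and Gadd45a stood at 0.04. Apex1, Gadd45b, Gadd45g and Ogt are 4 of the 5 genes whose promoter windows are printed above. Tet3 (2.73) and Tet2 (1.39) were captured above input at their annotated starts, but within 500 nt Tet2 fell below input, at 0.75. At 24 h the ratios were 0.19 for Apex1, 0.48 for Gadd45b, 0.11 for Gadd45g, 0.13 for Ogt, 0.11 for Gadd45a, 1.51 for Tet3 and 1.30 for Tet2, beside a median of 0.63. Tdg stood at 0.41 and 0.44 (0.02 and 0.31 within 500 nt), and Tet1 at 0.28 and 1.28. Whether the annotated rn5 starts of Tet2 and Tet3 are those of the CpG-rich RefSeq promoters was not tested, since the builds differ.

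**Figure D4:**
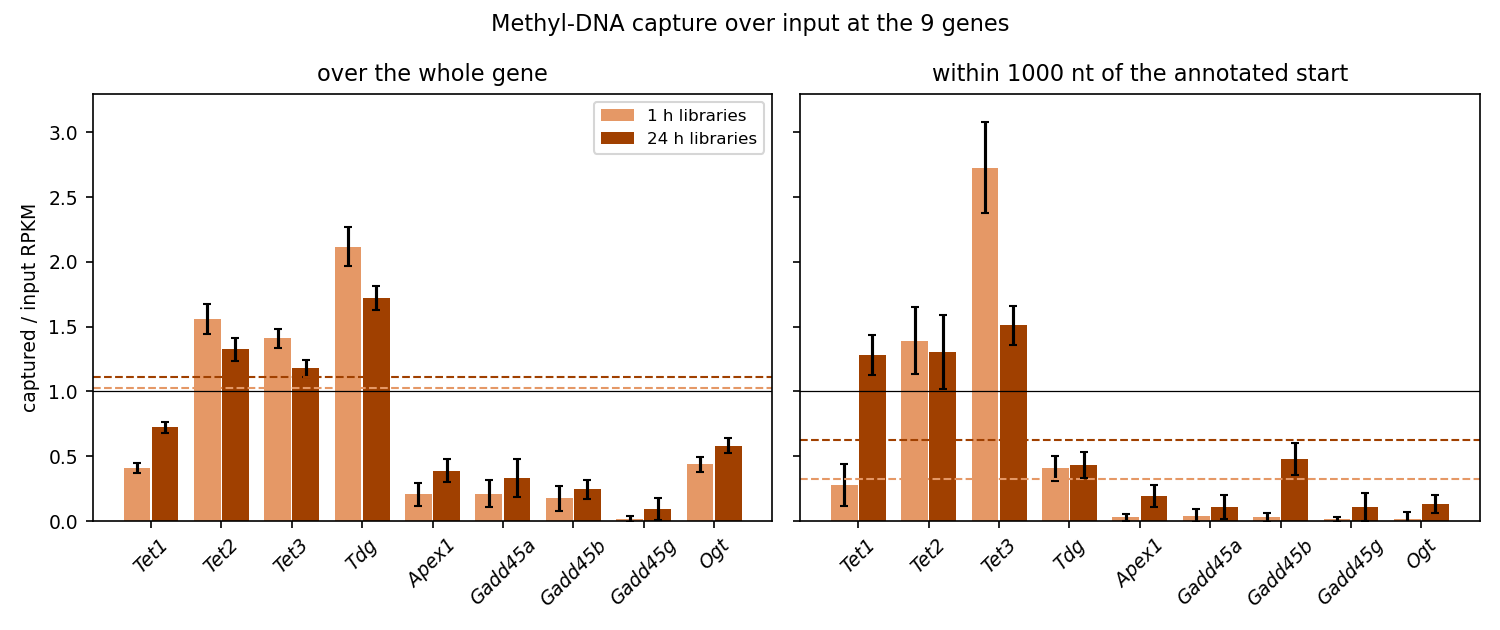
Captured over input RPKM (y axis, from 0) for each of the 9 genes over the whole gene and within 1000 nt of its annotated start, at 1 h and 24 h; bars are the mean of 10 captured libraries over the mean input, error bars the SD of the captured libraries on that scale, dashed lines the median of all genes. At the starts, Tet3 stands at 2.73 and 1.51 and Gadd45g at 0.01 and 0.11.

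Between groups, with all libraries in the fit, no member bin and no member gene passed the test without a block on replicate number. With it, 1 of 8 member bins passed for threat against place at 24 h. In that fit 12443 of all 85335 bins were called higher and 8 lower. Bins were tested where the captured mean reached 1 RPKM and 2 times input, which kept 35 of 417 member bins at 1 h (13 in Tet3, 10 in Tdg, 9 in Tet2, 2 in Tet1 and 1 in Ogt) and 8 at 24 h, all 8 among the 35. The Apex1 and Gadd45 genes had 0 tested bins, so this test says nothing about them. At 1 h limma called 0 of 35 for threat against naive (0.0160% of all bins), 0 for place against naive (0.00285%) and 0 between threat and place (0.0174%). At 24 h it called 0 of 8 in the same 3 comparisons (0.0105%, 0.00820% and 7.70% of all bins). At an unadjusted p under 0.05 in limma there were 3, 0 and 2 of 35 member bins at 1 h (53954, 11719 and 34980 of all 350378 bins). At 24 h there were 2, 0 and 5 of 8 (19688, 3649 and 31656 of all 85335). With median-ratio scaling there were 7, 0 and 2 member bins at 1 h (32068, 15410 and 22655 of all bins). At 24 h scaling left 1, 0 and 0 (3973, 4651 and 4841 of all bins). On the recovered reads, edgeR called 0 member bins throughout.

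Over whole genes, Tet2, Tet3 and Tdg were the members tested, and limma called 0 of 3 in all 6 comparisons, as it called 0% of all genes. At an unadjusted p under 0.05 there were 0 of 3, and edgeR on reads called 0 of 3. At 1 h edgeR called 0 of all 11705 genes in each comparison. At 24 h, of all 13115 genes, it called 118 higher and 189 lower for threat against place. For threat against naive it called 2 higher and 6 lower, and for place against naive 2 higher and 0 lower. Tdg at 24 h had naive libraries at 0.447 to 0.473 RPKM, place at 0.428 to 0.471 and threat at 0.471 to 0.522. Its threat against place difference on the log2(RPKM + 0.25) scale was 0.08 (SE 0.04, limma adjusted p = 0.189), the lowest adjusted p of the 3 genes. Tet3 at 1 h stood at 0.582 RPKM (SD 0.024, n = 3) in naive, 0.607 (SD 0.029, n = 4) in place and 0.627 (SD 0.034, n = 3) in threat libraries, with overlapping ranges.

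Threat libraries ran higher over all tested bins, and member bins are read against that. The median difference over all bins was 0.17 for threat against naive and 0.13 for threat against place at 1 h, and 0.23 and 0.28 at 24 h. Member bins were higher in 23 of 35 for threat against naive at 1 h, but 15 of 35 lay above the all-bin median. At 24 h 7 of 8 were higher and 4 of 8 lay above it, and for threat against place 8 of 8 were higher and 6 of 8 lay above it. With median-ratio scaling 0 member bins were called, and the calls over all bins for threat against place at 24 h went from 6566 higher and 4 lower to 0 higher and 6 lower.

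The member bin with the most captured DNA was Tet3 chr4:179666001-179666500, 30.6 kb past the annotated start, at 4.91 RPKM at 1 h (7.91 times input, median of 98.5 reads). It ran from 4.31 to 4.68 RPKM in naive, 3.84 to 6.89 in place and 4.68 to 5.73 in threat libraries. At 24 h it was again the highest, at 1.34 RPKM, with a threat against place difference of 0.38 (SE 0.16, limma adjusted p = 0.0973). The other end of Tet3, chr4:179656501-179657000, had 11.6 times the input at 1 h and a threat against naive difference of 0.47 (SE 0.19, limma adjusted p = 0.243), or 0.30 beyond the all-bin median. At 24 h that difference was 0.37 (SE 0.17, adjusted p = 0.192).

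Tet2 held the lowest p of the member bins. The bins chr2:257268001-257268500 and chr2:257268501-257269000, 10.8 and 10.3 kb past the annotated start, stood alone as a captured island with almost no signal around them. The second ran from 1.07 to 2.51 RPKM in naive, 1.38 to 2.49 in place and 2.29 to 2.92 in threat libraries at 1 h, with overlap. Its threat against naive difference was 0.63 (SE 0.21, unadjusted p = 0.0035, limma adjusted p = 0.183), and that of the first was 0.52 (SE 0.19, adjusted p = 0.216). At 24 h the lowest p was at chr2:257255501-257256000, at the far end of Tet2, with 0.784 to 1.43 RPKM in place and 1.34 to 1.54 in threat libraries (0.48, SE 0.17, adjusted p = 0.0588). The median over all bins was 0.17 for threat against naive at 1 h and 0.28 for threat against place at 24 h, so part of each difference is shared by all bins.

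In Tdg the highest bin at 1 h was chr7:27316001-27316500, 16.8 kb past the start, at 3.05 RPKM, with 1.98 to 3.11 in naive, 2.33 to 4.12 in place and 3.01 to 3.77 in threat libraries. Its threat against naive difference was 0.35 at both times (adjusted p = 0.365 at 1 h and 0.226 at 24 h). Tet1 had 1 bin tested at both times, chr20:29257001-29257500, 56.1 kb past the start. At 24 h it ran from 0.754 to 1.08 RPKM in naive, 0.756 to 1.14 in place and 1.22 to 1.42 in threat libraries, so threat lay above both, without passing (0.45, SE 0.18, adjusted p = 0.154 against naive, and 0.43, SE 0.17, adjusted p = 0.0735 against place). The medians over all bins in these comparisons were 0.23 and 0.28, so part of each difference is shared by all bins. How many of all bins were apart in this way was not counted. The Ogt bin chrX:72404001-72404500 stood at 1.03 RPKM against 0.041 in input at 1 h, with overlapping groups of 0.864 to 1.26, 0.690 to 1.16 and 1.01 to 1.34. Whether these bins are exonic or intronic was not assigned here.

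**Figure D5:**
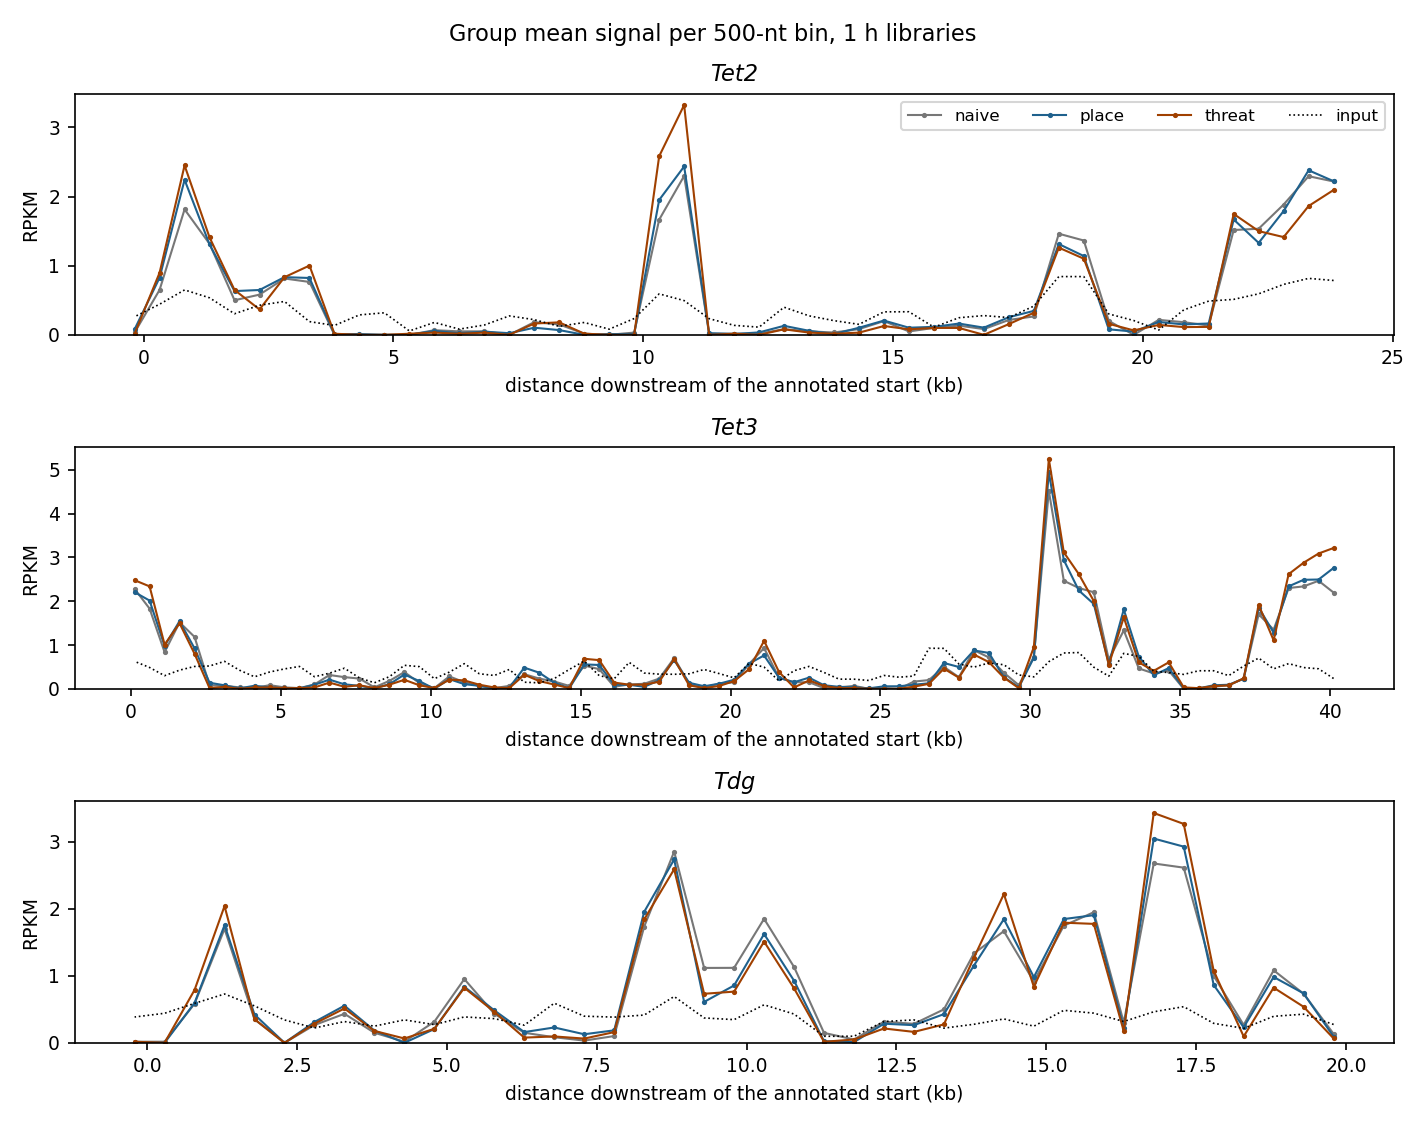
Mean RPKM per 500-nt bin (y axis) along Tet2, Tet3 and Tdg in the 1 h libraries against distance downstream of the annotated start in kb (x axis), as lines for naive (n = 3), place (n = 4) and threat (n = 3) captured libraries and a dotted line for input (n = 3). Captured DNA gathers in a few peaks, the tallest in Tet3 at 30.6 kb, and the Tet2 bins at 10.3 and 10.8 kb stand alone.

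At the starts, libraries of 2 groups were fully apart in some windows. For threat against naive at 1 h, 1 of 9 members was higher without overlap (4.62% of all genes) and 1 lower (9.48%), and at 24 h 1 was higher (6.34%) and 3 lower (9.64%). For threat against place at 1 h, 0 were higher (2.08%) and 1 lower (3.91%), and at 24 h 2 were higher (5.18%) and 1 lower (6.35%). For place against naive there were 0 in each direction, beside 2.01% higher and 3.12% lower at 1 h and 2.39% and 3.08% at 24 h. Tet1 at 1 h was lower in threat libraries, at 2 to 4 reads, than in naive (7 to 16) and place (5 to 11), and Tet2 at 1 h was higher in threat (63 to 82 reads) than in naive (46 to 57) by RPKM. At 24 h Gadd45b was higher in threat libraries (39 to 42 reads) than in naive (20 to 34) and place (19 to 34), Tdg was lower in threat (0.083 to 0.087 RPKM) than in naive (0.098 to 0.104) and place (0.090 to 0.152), and Tet2 was higher in threat (0.437 to 0.466 RPKM) than in place (0.280 to 0.375). Gadd45a (0 to 3 reads in threat, 5 to 10 in naive) and Ogt (0 to 3 and 3 to 6) rest on a handful of reads. An exact two-sided permutation test cannot go below 0.1 for 3 against 3 libraries or 0.0571 for 3 against 4, so none of these could pass.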

How the data were processed

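RNA libraries are described as directional, polyA+ and made from high-quality RNA, per the labels' protocols. The authors deposited FPKM per gene for 34 RNA libraries, and for 26 MBD libraries a signal, RPKM per bin of 500 nt. Tools listed with no stated role, per the submitters' processing notes, are Bowtie, TopHat 1.4.0, edgeR and DESeq2, beside the genome builds rn5 and mm10. The tables are titled with a mouse build, but their bins reach position 290094000 of chromosome 1, as in rat rn5, so positions are given in rn5. Promoter sequences are RefSeq's, in GRCr8, cut to the 250 bases before each start.

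The 13153 genes that reached 1 FPKM in 5 or more libraries entered 1 limma 3.58.1 fit with trend on log2(FPKM + 1) over all 34 RNA libraries, with 5 groups and 9 contrasts, and p-values were Benjamini-Hochberg adjusted over all genes. MBD signal was tested at each time with limma on log2(RPKM + 0.25), per bin (350378 at 1 h, 85335 at 24 h) and per gene with captured above input signal. The deposited RPKM signal corresponded to whole reads for 100% of values within 0.1 reads, which gave the reads for edgeR 4.0.16 and for the depths. The median tested bin had 35 reads at 1 h and 41 at 24 h. Read totals of the RNA libraries are not given in the sources used here. Counting error does not cover PCR copies, and 21 short bins were left out. The threat against naive fits were tried on simulated data with 200 planted changes. The 24 h RNA fit recovered 68% of the smaller and 97% of the larger changes. For 1 h MBD genes limma recovered 39% and 78%, and edgeR on reads 7% and 80%. False calls made up 7.30%, 7.14% and 3.33% of calls. Small changes in MBD genes can therefore go uncalled.

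The 9 genes, the gene and marker lists and the alternatives were chosen with earlier results of these data known. Named beyond the members are the genes of each list with the lowest p per contrast, up to 4, the 2 genes most correlated with each member, and per member and time the tested bin with the highest captured mean and that with the lowest p. Some genes that this rule names are not reported here. Start windows were compared by range only. Equal replicate numbers were not read as pairs, since the labels tie them to no shared animal or day, and same-numbered libraries did not all deviate together. Alternatives were another pseudocount, no filter, other scalings, only the groups compared, array weights, the naive sets, leaving out the choroid-rich libraries or each replicate, and edgeR on reads.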

Additional observations from a re-analysis of the deposited data

Results flagged for a closer look

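In 63 groups of 4 to 9 libraries, 4 values stood far from the rest of their group, where chance alone gives about 1 in 20, or 3.1. Tdg reached 11.3 FPKM in threat 1 h replicate 3, with the other 7 libraries of that group at 8.04 to 9.18. Tet1 stood at 0.332 FPKM in threat 1 h replicate 6, below the others at 0.492 to 0.605. Captured signal over Gadd45a was 0.140 RPKM (30 reads) in place 24 h replicate 3, and 0.0787 to 0.0839 (13 to 18 reads) in the other 3. Captured signal over Gadd45g was 0.0184 RPKM (2 reads) in place 1 h replicate 2 and 0 in the other 3. Tdg was not called in a comparison with that group. In the main fits the others could not be called. Tet1 fell below the filter, and capture over Gadd45a and Gadd45g lay below input and was not tested. Without the filter and without the input condition, these genes were not called either.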

How the results depend on the processing

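The number of members called for threat against naive at 1 h was 0, and became 1 with naive 1 to 4 only, 2 with 5 to 9 only and 2 with array weights (leave-one-out 0 to 2). For place against naive at 1 h it was 0, and 1 with 5 to 9 only. For threat against naive at 24 h it was 2, and became 1 with only the groups compared, 5 with naive 1 to 4 and 0 with 5 to 9 (leave-one-out 2 to 3). For place against naive at 24 h it was 3, and became 1 without the filter, 1 with quantile normalization, 0 with only the groups compared, 5 with naive 1 to 4 and 0 with 5 to 9. Leaving out 1 library gave 0 to 5 there, with 0 without naive 3 or place 24 h replicate 2, 3 or 5, 1 without naive 1, 2 or 4 or place 24 h replicate 4, and 5 without naive 9, so these calls lie at the threshold. Between times, threat stayed at 3 to 4 and place at 2 to 3 in leave-one-out, with 4 for place with array weights. Gadd45a rose between place times without place 1 h replicate 2 (0.31, adjusted p = 0.0386), and Tet3 fell for threat against naive at 24 h without naive 7 (-0.16, adjusted p = 0.0466). At threat 1 h against naive, leaving out naive 4 called Tet2 and Ogt, naive 1 called Tet2 and naive 5 called Gadd45b. Tet2 for place against naive at 1 h turned from 0.074 to -0.043 with naive 1 to 4, the 1 reversal among 500 refits of single genes. With the replicate block, 4 members were called for place against naive at 24 h and 3 between place times. For threat against place at 24 h, 1 of 8 member bins was called in place of 0. That fit called 12443 of all 85335 bins higher and 8 lower. Deviations of same-numbered libraries correlated at -0.50 to 0.59 in RNA, where 5 of 34 libraries matched their own number best, and at -0.25 to 0.08 in MBD, where 7 of 10 did for bins at 24 h. The replicate block changed no other count of member calls by more than 1.5 times. In MBD bins, 1 was called for threat against naive at 1 h without threat replicate 3 (0 to 1), and 3 for threat against place at 24 h without place replicate 1 (0 to 3). The share of all bins called in these refits is not given here, so they say nothing particular to the members. With all libraries it was 0.0160% and 7.70%. Without the input condition all 9 genes were tested and 0 called. With a window of 500 nt, start ratios moved most for Tdg (0.41 to 0.02) and Tet2 (1.39 to 0.75) at 1 h, and Tet1 had 1.59 at 24 h. Causes of these changes were not tested. The Gadd45 genes and Apex1 had few captured reads and capture below input, so the main fits did not test them. The lack of calls without the input condition does not show equal capture there.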

Other observations

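Leng8, a transcript chosen after its values were seen, tracked the members over the 34 libraries with r of 0.91 for Ogt, 0.80 for Tet2, 0.67 for Tet3 and -0.73 for Apex1, and of -0.29 for Gadd45b and 0.18 for Tdg. The choroid plexus transcript Ttr had r between -0.10 and 0.36 with the 9 genes. These correlations describe libraries that share groups and naive sets.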
